A study of Mus musculus with 8 samples.

Results

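Fibroblast genes and noncollagen matrix genes were followed in the left ventricle of mice without a working Nppb gene. A set of 38 genes was taken from a table of 41128 genes, and 37 of them matched 1 row each by symbol (Ctgf is also known as Ccn2). Loxl2 has no symbol in that table and was taken by its Ensembl gene ID, which GENCODE M21 pairs with the name. The knockouts were 4 FVB mice homozygous for a CRISPR deletion in exon 2 of Nppb, which encodes the precursor of brain natriuretic peptide. They were set against 4 wild-type FVB littermates, and both groups were 8 to 12 weeks old. The labels name Myh6-MerCreMer and reporter lines in their husbandry text but assign none of them to these animals, and they do not give the number of founder lines. Total RNA was sequenced from 1 left ventricle per animal. A value below is a normalized count, meaning reads assigned to a gene divided by a size factor of the library, unless another unit is named.

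Cardiac fibroblasts sit between the muscle cells and secrete most of the interstitial matrix. Collagen fibrils carry tension in that matrix, small leucine-rich proteoglycans bind and space the fibrils, and elastin laid on fibrillin microfibrils gives recoil. Intracellular chaperones and hydroxylases prepare procollagen, lysyl oxidases crosslink it outside the cell, and metalloproteinases and their tissue inhibitors (TIMPs) set its removal. Matricellular proteins such as periostin and thrombospondin modulate cell behaviour and are known to be induced in injured or overloaded hearts. Natriuretic peptides are known to act on cardiac fibroblasts through cyclic GMP, and brain natriuretic peptide is known as a local restraint on ventricular fibrosis. The comparison asks whether loss of Nppb was accompanied by other levels of these transcripts in the unchallenged ventricle.

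The libraries held 23063558 to 33729626 gene reads in knockouts and 20284865 to 34742840 in wild type. Nppb read 1.54 to 4.13 in knockouts against 1839.6 to 4619 in wild type, so all 8 libraries matched their labels at this gene. The 6 fibroblast markers Pdgfra, Tcf21, Dcn, Lum, Gsn and Dpt were present in all 8 libraries, with a summed level of 28898 to 35052 in knockouts and 33083 to 35059.6 in wild type. Gsn alone averaged 19894 of a mean sum of 31896 in knockouts and 21380 of 33853 in wild type, so the sum mostly follows Gsn. In whole tissue, a difference in fibroblast number and one in RNA per fibroblast cannot be told apart. Wild-type replicate 2 stood apart from the other wild-type animals for several members, and values without it are given beside those members.

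No member passed the test. By limma with Benjamini-Hochberg adjustment over all 16590 tested genes, 0 of 36 tested members had an adjusted p under 0.05, against 0.0121% of all tested genes, and the smallest adjusted p of a member was 0.742. The low-count members Spp1 and Mmp3 were below the mean of 10 needed for testing. EdgeR on recovered whole reads called 0 of 36 members (background 0.0121%), with 2 at an unadjusted p under 0.05 (background 6.31%). DESeq2 on those reads called 0 of the 26 members that had an adjusted p (background 0.262%). It had 2 of 38 at an unadjusted p under 0.05 (background 2.94% of 28401 genes with any read). The authors' deposited table calls 0 of the 24 members that carry an adjusted p there (background 0.37%). It lists Vcan, Fbln1 and Loxl1 with an unadjusted p under 0.05 (background 3.49% of 29235 listed genes). The shares of 2.94% and 3.49% include many low-count genes that limma and edgeR left out. They are therefore not like-for-like backgrounds for these members. At an unadjusted limma p under 0.05 there were 2 members, Vcan higher and Fbln1 lower, out of 36, against 6.26% of all tested genes. In no tested member were the 4 knockout values separate from the 4 wild-type values. Such separate groups occurred in 3.76% of all tested genes, a share too low for 0 of 36 to stand out.

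Estimates on the log2 scale ran from -0.47 for Fmod to 0.60 for Timp1. The median log2 fold change, knockout over wild type, was 0.04 over the 36 tested members and 0.00 over all tested genes. Estimates were above 0 for 19 members, against 50.9% of all tested genes. Together the 38 members held 0.265% to 0.285% of all normalized counts in knockouts and 0.254% to 0.281% in wild type. These ranges overlap over most of their width.

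**Figure D1:**
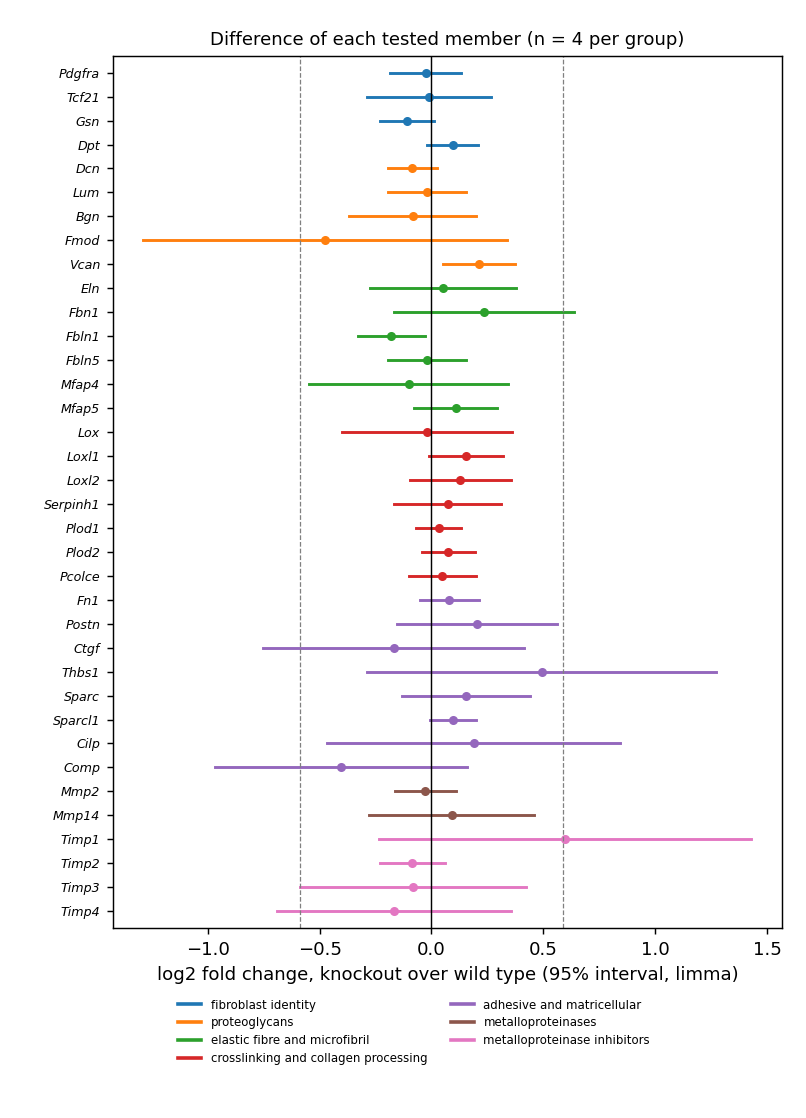
The log2 fold change of each tested member, knockout over wild type, is drawn as a point with its 95% interval from limma (n = 4 per group), coloured by role; dashed lines mark a change of 1.5-fold. Every interval except those of Vcan and Fbln1 crosses 0, and the widest belong to the low or variable genes Timp1, Fmod and Thbs1.

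The 95% intervals give, gene by gene, the range of change compatible with these 8 animals. They are not adjusted over all genes, so they do not show what size of change the adjusted test would miss. For 27 of 36 members the 95% interval lay inside a change of 1.5-fold in either direction, and for 33 inside a 2-fold change. Fmod, Thbs1 and Timp1 were the members whose intervals reached beyond 2-fold. The standard error ran from 0.05 for Sparcl1 to 0.39 for Timp1 on the log2 scale, with a median of 0.10.

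The members differed widely in level. Per kb of annotated exon, gelsolin (Gsn), an actin-severing protein abundant in cardiac fibroblasts and also made by other cells, was highest, at 6302 ± 561 normalized counts per kb in knockouts and 6772 ± 266 in wild type (SD, n = 4 each). Sparcl1, Serpinh1, Sparc and Dcn came next, each at 1435 to 2548 per kb in knockouts and 1521 to 2379.6 in wild type. Dpt and Lum were at 618 and 527 per kb in knockouts and at 579 and 535 in wild type. The lineage factor Tcf21 was far lower, at 44.5 ± 3.57 per kb in knockouts and 45.2 ± 7.48 in wild type (SD, n = 4 each). At the low end stood Comp, Fmod, Spp1 and Mmp3, with 0.83 to 7.09 per kb in knockouts and 2.09 to 9.20 in wild type. The exon length sums all annotated transcripts of a gene, so it overstates the length of genes with long rare exons.

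Among the fibroblast identity genes, all 4 were tested, 0 passed and 1 had an estimate above 0. Pdgfra, the PDGF receptor that marks resident fibroblasts, read 1286, 1087, 1046 and 1222 in knockout replicates 1 to 4, and 1204, 1261, 1038 and 1219 in wild-type replicates 1 to 4. The 2 ranges nearly coincided, with a log2 fold change of -0.03 (SE 0.07). Tcf21, a transcription factor required for the fibroblast lineage, read 110.4 at most and 92.4 at least in knockouts, against 128 and 91.8 in wild type, with a log2 fold change of -0.01 (SE 0.13). Gsn read 22209, 17901, 19858 and 19609 in knockouts and 20686, 22208, 20626 and 21998 in wild type. Knockout replicate 1 matched the highest wild-type animal, and the other knockouts were lower than all wild-type animals. The estimate for Gsn was -0.11 (SE 0.06, limma adjusted p = 0.801), and without knockout replicate 1 it was -0.16 (SE 0.05, limma adjusted p = 0.460). Without knockout replicate 2, the lowest animal, the Gsn estimate was -0.058 (SE 0.06, limma adjusted p = 0.969). Dpt, the matrix protein dermatopontin, had an estimate of 0.09 (SE 0.05), with 1004 to 1113 in knockouts and 928 to 1049 in wild type.

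Of the 5 proteoglycans, 0 passed, 1 had an estimate above 0 and 4 below. Versican (Vcan; chromosome 13, 89655312 to 89742509, reverse strand, mm10), a large hyaluronan-binding proteoglycan of provisional matrix, read 889.8, 1074, 1169 and 1095 in knockouts against 956, 831, 911.5 and 939 in wild type. Knockout replicates 2 to 4 were above every wild-type animal, and knockout replicate 1 was below 3 of the 4. The means were 1057 ± 119 in knockouts and 909 ± 55.3 in wild type (SD, n = 4 each). This was the smallest p among the members, with a log2 fold change of 0.21 (SE 0.08, 95% interval 0.05 to 0.37), but the limma adjusted p was 0.742. An exact two-sided permutation test over the 8 animals gave p = 0.114 for Vcan, where 0.0286 is the smallest possible. Without knockout replicate 1 the Vcan estimate was 0.29 (limma adjusted p = 0.198), and without wild-type replicate 2 it was 0.17 (limma adjusted p = 0.597). The authors' deposited table lists Vcan with a log2 fold change of -0.22, coded as wild type over knockout, and an adjusted p of 0.395.

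Decorin (Dcn), which binds collagen fibrils and growth factors, read 9131, 7568, 8184 and 8636 in knockouts and 8794, 9019, 9034 and 8667 in wild type. Again 3 knockouts were below all wild-type animals and knockout replicate 1 was above them, with a log2 fold change of -0.09 (SE 0.05). Lumican (Lum), a relative of decorin, averaged 1291 ± 129.9 in knockouts and 1309 ± 127 in wild type (SD, n = 4 each). Biglycan (Bgn) averaged 1227 ± 159.9 in knockouts and 1304 ± 204 in wild type (SD, n = 4 each), with 1604 in wild-type replicate 2. The Bgn estimate of -0.08 became 0.02 without that animal. Fibromodulin (Fmod), a proteoglycan of tendon and valve, was near the limit of testing at 14.9, 8.49, 11.2 and 13.5 in knockouts and 14.5, 11.8, 10.6 and 42.2 in wild type. Wild-type replicate 4 was alone in its high value. The estimate was -0.47 (SE 0.38), and -0.047 without that animal.

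That animal also read highest for the mesothelial and epicardial markers. Their sum over 6 genes was 385 in wild-type replicate 4, against 171 to 238 in knockouts and 105 to 266 in the other wild-type animals. Upk3b, a mesothelial membrane protein, read 121 there and 3.09 to 35.5 elsewhere. Adipocyte markers, summed over 5 genes, were highest in the same animal. They came to 80.1 there, against 8.49 to 23.1 in knockouts and 16.0 to 33.4 in the other wild-type animals. The valve and cartilage-like markers, summed over 7 genes, were at 222 to 284 in knockouts and 242 to 269.6 in wild type, with Ucma and Hapln1 at or near 0. The part of these cells in the Fmod value was not tested.

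The 6 elastic fibre and microfibril genes held 3 estimates above 0 and 3 below, and 0 passed. Fibulin-1 (Fbln1; chromosome 15, 85205949 to 85286535, forward strand, mm10), a calcium-binding glycoprotein of elastic fibres and basement membranes, read 729, 618.5, 684 and 678 in knockouts against 689.5, 826, 721 and 836 in wild type. The groups overlapped at knockout replicate 1 and wild-type replicates 1 and 3. The means were 677 ± 45.3 in knockouts and 768 ± 73.8 in wild type (SD, n = 4 each), a log2 fold change of -0.18 (SE 0.07, 95% interval -0.33 to -0.03; limma adjusted p = 0.753). The exact two-sided permutation test gave p = 0.114 for Fbln1.

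Fibrillin-1 (Fbn1), the backbone of microfibrils, had 3574, 4130.1, 3637 and 2732 in knockouts and 2286, 3122, 3179 and 3368 in wild type. The first 3 knockouts exceeded every wild-type animal, and knockout replicate 4 was below 3 of them. The estimate was 0.24 (SE 0.17; limma adjusted p = 0.851). It was 0.35 without knockout replicate 4 and 0.11 without wild-type replicate 1. Elastin (Eln) ranged from 253 to 296 in 3 knockouts, with 429 in knockout replicate 2, against 257 to 325 in wild type. Its log2 fold change was 0.05 (SE 0.15). Fbln5, which helps assemble elastin, had an estimate of -0.02 (SE 0.08), and the microfibril-associated Mfap5 one of 0.11 (SE 0.09). Mfap4 averaged 56.3 ± 11.7 in knockouts and 61.3 ± 17.7 in wild type (SD, n = 4 each), and part of its exon sequence is shared with the opposite-strand gene Mapk7.

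Genes that fold, hydroxylate, trim and crosslink collagen had 6 of 7 estimates above 0, between -0.02 and 0.15 on the log2 scale, and 0 passed. Serpinh1 (HSP47), the collagen chaperone, read 3867, 4623, 5505 and 4231 in knockouts and 4302, 3993, 4178 and 4750.5 in wild type. Knockout replicate 3 was highest and knockout replicate 1 lowest, so the wild-type values lay inside the knockout range. The estimate was 0.07 (SE 0.10). Plod1, a lysyl hydroxylase, lies on chromosome 4 at 147909753 to 147936767, near Nppb at 147985788 to 147987205 (mm10). It varied least of all members, with 2272 ± 132 in knockouts and 2219.9 ± 54.4 in wild type (SD, n = 4 each). The 95% interval of its log2 fold change ran from -0.07 to 0.13. Plod2, the telopeptide lysyl hydroxylase, had an estimate of 0.07 (SE 0.06), and Pcolce, an enhancer of procollagen C-proteinase, one of 0.05 (SE 0.07).

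Each of the 3 lysyl oxidases overlapped between the genotypes. Loxl1, which crosslinks elastin, had 512, 584, 569 and 478 in knockouts and 428, 479, 491 and 525 in wild type. Knockout replicates 2 and 3 were above all wild-type animals. Loxl1 had an estimate of 0.15 (SE 0.08; limma adjusted p = 0.796). Loxl2 had an estimate of 0.13 (SE 0.10), which was 0.22 (SE 0.09) without wild-type replicate 2 and 0.076 without wild-type replicate 1. Lox, the founding enzyme, averaged 81.7 ± 16.5 in knockouts and 83.3 ± 18.4 in wild type (SD, n = 4 each).

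**Figure D2:**
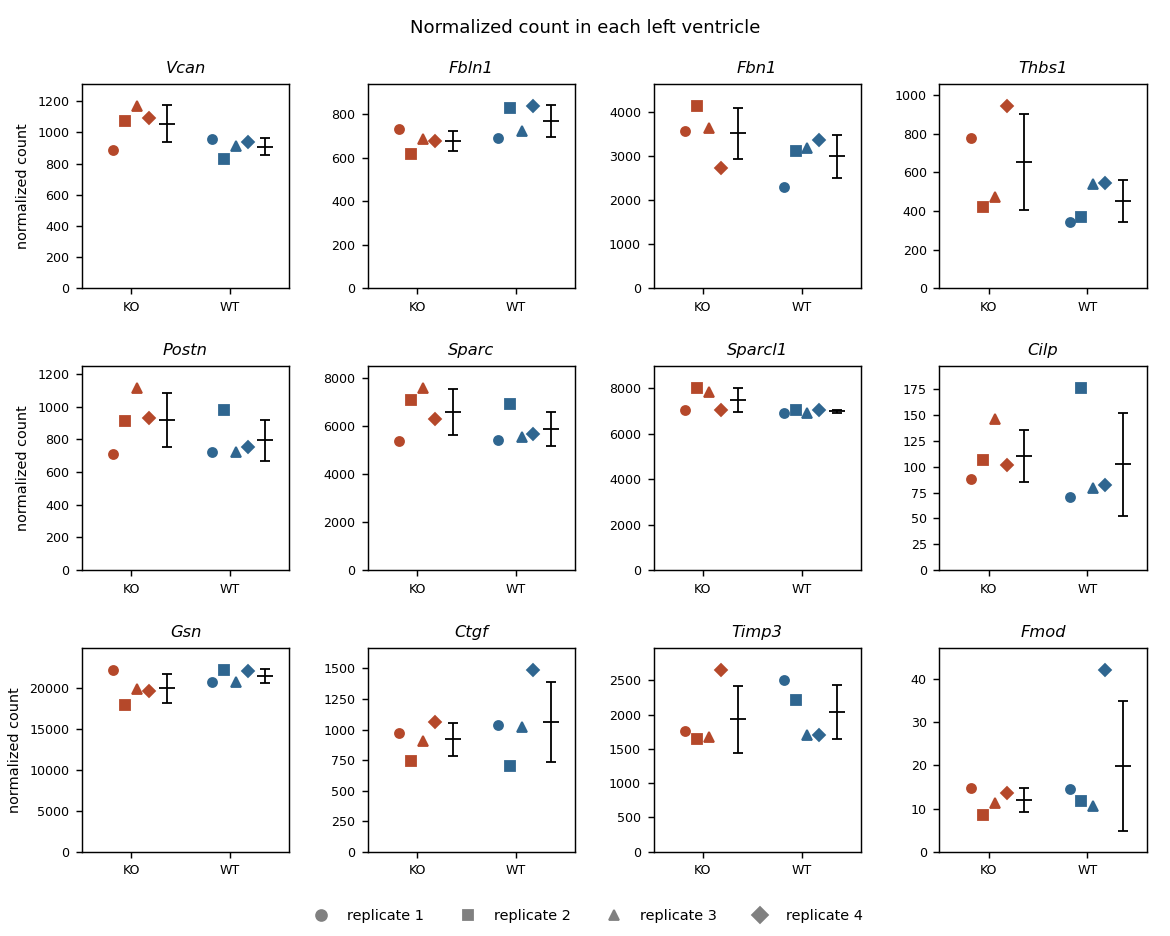
Normalized counts of 12 members are plotted for each left ventricle, knockouts left of wild type, with a marker shape per replicate number and the mean ± SD as a bar (n = 4 per group; shapes do not pair animals). Vcan and Gsn show 3 knockouts on one side of all wild-type animals, with knockout replicate 1 (circle) below 3 of the 4 wild-type animals for Vcan and level with the highest for Gsn, while Postn, Sparc and Cilp show wild-type replicate 2 (square) above the other wild-type animals.

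Among the 9 adhesive and matricellular genes, 8 were tested, 0 passed, and 6 estimates were above 0 with a median of 0.13 on the log2 scale. Periostin (Postn), a product of activated fibroblasts, read 711, 913, 1115 and 930.4 in knockouts and 720.0, 980.1, 724 and 750.4 in wild type. Knockout replicate 1 resembled wild-type replicates 1, 3 and 4, and wild-type replicate 2 resembled the other knockouts. The estimate of 0.20 (SE 0.15; limma adjusted p = 0.858) was 0.31 without wild-type replicate 2 and 0.32 without knockout replicate 1, with limma adjusted p-values of 0.607 and 0.595. Without knockout replicate 3, the highest animal, it was 0.10 (limma adjusted p = 0.942).

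The same arrangement of animals was seen in Sparc (osteonectin), a collagen-binding glycoprotein, with 5368, 7064, 7579 and 6267 in knockouts and 5408, 6918, 5522 and 5660.1 in wild type. Its log2 fold change was 0.16 (SE 0.12). It was 0.24 without wild-type replicate 2, 0.25 without knockout replicate 1 and 0.083 without knockout replicate 3. Cilp, a matrix protein of activated fibroblasts, read 88.3, 107, 146 and 101 in knockouts against 70.9, 177, 79.8 and 82.3 in wild type. All 4 knockouts exceeded the wild-type animals other than replicate 2. The Cilp estimate of 0.19 (SE 0.29) was 0.48 (SE 0.16; limma adjusted p = 0.454) without wild-type replicate 2. It was 0.046 without knockout replicate 3 and 0.047 without wild-type replicate 1. Sparcl1, a secreted relative of Sparc also made by vascular cells, read 7051, 8025, 7827 and 7038 in knockouts and 6924, 7061, 6920.5 and 7049 in wild type. The wild-type values spread by 1.10% (coefficient of variation) and knockout replicates 2 and 3 were above all of them, for an estimate of 0.10 (SE 0.05; limma adjusted p = 0.796).

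Thrombospondin-1 (Thbs1), a TGF-beta activator, was among the most variable members. It read 777, 421, 474 and 942 in knockouts and 341, 371, 542 and 545 in wild type. Knockout replicates 1 and 4 were above all wild-type animals, whereas knockout replicates 2 and 3 lay among them. The estimate was 0.49 (SE 0.32, 95% interval -0.29 to 1.27; limma adjusted p = 0.839), and 0.29 without knockout replicate 4. Ctgf, a matricellular target of mechanical and TGF-beta signalling, had 976, 740.5, 906 and 1058 in knockouts and 1039, 698.5, 1025 and 1491 in wild type. Wild-type replicate 4 gave the highest value. The estimate of -0.17 (SE 0.24) was 0.01 without that animal and -0.35 without wild-type replicate 2. Fibronectin (Fn1) read 1069, 1271, 1278 and 1281 in knockouts and 1186, 1218.5, 1102 and 1119.7 in wild type, so that 3 knockouts lay above all wild-type animals and knockout replicate 1 lay below them.

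Genes of cartilage-like or inflamed matrix were scarce. Comp, a pentameric matrix protein, averaged 21.0 ± 8.002 in knockouts and 27.3 ± 5.86 in wild type (SD, n = 4 each). Osteopontin (Spp1), a cytokine of macrophages and stressed myocardium, stayed between 1.65 and 10.2 in knockouts and between 3.25 and 10.8 in wild type. It was supported by 22 reads over the 4 knockouts and 25 over the 4 wild-type animals, too few for a test.

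Of the matrix metalloproteinases, Mmp2 (gelatinase A) was the most abundant, at 1026, 1024, 1092 and 989 in knockouts and 990.8, 1219, 1009.9 and 1006 in wild type. Apart from wild-type replicate 2 the 7 other values lay between 989 and 1092. The log2 fold change was -0.03 (SE 0.06), and 0.04 without that animal. The membrane-anchored Mmp14, which activates Mmp2, averaged 206 ± 48.7 in knockouts and 191 ± 32.1 in wild type (SD, n = 4 each). Stromelysin (Mmp3) had 7 reads in the 4 knockouts and 15 in the 4 wild-type animals. It had 0 reads in knockout replicate 4 and wild-type replicate 2, where a count of 0 allows up to 3 reads, or 3.38 and 2.94 normalized counts.

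The 4 inhibitors did not pass either. Timp3, the matrix-bound inhibitor, read 1756, 1639, 1671 and 2656 in knockouts and 2505, 2216, 1707 and 1703 in wild type. High values occurred in knockout replicate 4 and wild-type replicates 1 and 2, so the spread ran across genotypes, and the estimate was -0.08 (SE 0.21). Timp2, which also takes part in Mmp2 activation, had 754 ± 60.7 in knockouts and 800.1 ± 59.1 in wild type (SD, n = 4 each). Timp4, the inhibitor known for its cardiac expression, had 74.2 ± 22.3 in knockouts and 82.0 ± 20.7 in wild type (SD, n = 4 each), and its exons overlap the opposite-strand gene Syn2. Timp1, an inhibitor known to be induced in injured hearts, was near the bottom of the set, at 15.7, 10.8, 12.3 and 14.6 in knockouts and 11.4, 17.7, 5.32 and 4.33 in wild type. The values rest on 58 reads in knockouts and 41 in wild type, and the estimate was 0.60 (SE 0.39; limma adjusted p = 0.818). It was 0.93 without wild-type replicate 2 and 0.32 without wild-type replicate 4 (limma adjusted p = 0.5598 and 0.958).

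**Figure D3:**
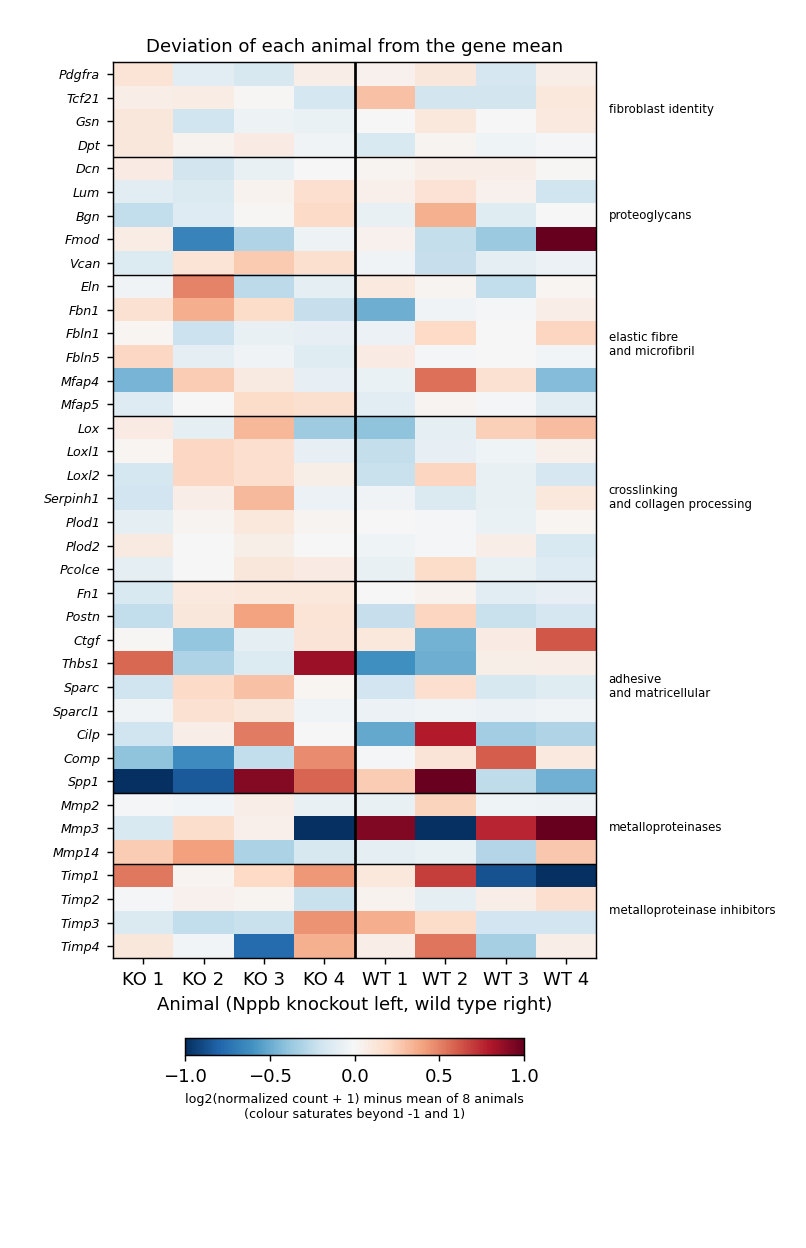
Each cell shows how far log2(normalized count + 1) of a member in 1 animal lies from that gene's mean over 8 animals, with knockouts left of wild type and genes grouped by role. No row has all 4 knockouts on one side of all 4 wild-type animals, and Fmod, Spp1, Mmp3 and Timp1, with few reads, carry the strongest ones.

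Animals of the same genotype differed in many of these genes. The coefficient of variation within genotypes had a median of 8.95% over the 24 members with a mean of at least 500, against 5.23% over the 5252 genes of that level. Plod1, Plod2, Dpt and Sparcl1 were the steadiest, at 4.49% to 5.09%, and Fmod, Timp1, Cilp and Thbs1 the most variable, at 34.7% to 68.0%. Wild-type replicate 2 had the highest wild-type value for 17 of 36 tested members (47.2%), whereas it was highest for 27.5% of all tested genes. Wild-type replicates 1 and 3 were lowest for 13 and 11 of the 36 members (36.1% and 30.6%, against 21.6% and 26.1% of all tested genes). Knockout replicate 1 was lowest among knockouts for 12 of 36 members (33.3%, against 26.8% of all tested genes) and highest for 9 (25.0%, against 26.0%). Knockout replicate 2 was lowest for 11 (30.6%, against 22.0%), knockout replicate 3 for 4 (11.1%, against 24.1%) and knockout replicate 4 for 9 (25.0%, against 27.1%).

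Single animals moved the count at an unadjusted limma p under 0.05, which was 2 of 36 with all animals. Without knockout replicate 1 it was 9 of 36 (background 7.43%), of which 6 were higher (background 3.89%) and 3 lower (background 3.54%). The higher ones were Vcan, Loxl2, Fn1, Postn, Sparc and Sparcl1, and the lower ones Gsn, Dcn and Fbln1. Without knockout replicate 4 it was 7 (background 6.39%), in part other genes. Of these Dpt, Vcan, Fbn1, Loxl1 and Sparcl1 were higher, and Fbln1 and Comp lower. Without wild-type replicate 2 it was 4 (background 8.21%), namely Vcan, Loxl2, Cilp and Timp1, all higher (background 4.01%). Without knockout replicate 2 or 3 it was 1 (background 4.91% and 5.38%), and without wild-type replicate 1, 3 or 4 it stayed at 2 (background 6.53%, 5.24% and 5.07%). Adjusted over all genes, 0 members passed in each of these fits (background 0.0362% without wild-type replicate 2, 0.0241% without knockout replicate 4 and 0.00603% in the others), and 0.198 was the smallest adjusted p of a member. Macrophage markers, summed over 9 genes, were at 4035, 4166, 4526 and 4394 in knockouts and 3578, 4657, 3752 and 3788 in wild type, so wild-type replicate 2 had the highest sum of all animals and knockout replicate 1 the lowest of the knockouts. Cell cycle markers, summed over 8 genes, came to 393, 1112, 863 and 836 in knockout replicates 1 to 4, against 445 to 641 in wild type. Cardiomyocyte markers, summed over 8 genes, were at 1.327e+06 in knockout replicate 1, the highest knockout. They were at 1.261e+06 in wild-type replicate 2, the lowest wild type. Smooth muscle and pericyte markers, summed over 9 genes, did not follow these animals, with 33653 in knockout replicate 1 inside 32853 to 34222 in knockouts. The part of any of these cell types in the matrix values was not tested.

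Other genes of the same biology were read for context. Of 18 other fibroblast genes, 34 tested noncollagen matrix genes and 30 other matrix enzymes and inhibitors, 0 passed, with medians of 0.03, -0.01 and 0.00 on the log2 scale. The 15 collagen genes listed, a part of that family, had 14 estimates above 0 (50.9% of all tested genes) and a median of 0.11, with 0 passing. Their sum was 44297 to 54657 in knockouts and 39223 to 50348 in wild type, with the wild-type maximum again in replicate 2. The collagens shifted together by animal, with a median deviation from the gene mean of -0.23 in wild-type replicate 1 and 0.15 in wild-type replicate 2 on the log2 scale. Their 14 estimates above 0 are therefore not separate observations. Of the 97 tested genes of these lists, 4 were higher and 4 lower at an unadjusted limma p under 0.05, against 2.98% and 3.29% of all tested genes.

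Pcolce2, a paralog of the procollagen enhancer Pcolce, read 262, 280.3, 327 and 268 in knockouts and 234, 261, 193 and 171 in wild type. The groups did not overlap, by a margin of under 1 between knockout replicate 1 and wild-type replicate 2, and 3.76% of all tested genes had such groups. Pcolce2 had an estimate of 0.42 (SE 0.12; limma adjusted p = 0.661). Tenascin-X (Tnxb), a glycoprotein that spaces collagen fibrils, read 6469.6, 6021, 6538 and 6525 in knockouts and 7023, 6829, 7011 and 7098 in wild type, also without overlap. Tnxb had one of -0.13 (SE 0.04; limma adjusted p = 0.664).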

How the data were processed

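Groups and replicate numbers came from the sample titles. Libraries were made from 900 ng of total RNA with a stranded kit and read as 125 bp pairs, per the labels' protocols. The authors deposited 1 signal value per gene and library, a count divided by a size factor. STAR, DESeq2 and build mm10 are named in the submitters' processing notes, while the counter, its annotation and its strand setting are not given there. The authors also deposited a table with log2 fold changes (wild type over knockout), p-values, adjusted p-values and geometric means.

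The deposited values of each library were whole multiples of 1 step within 0.01 reads for 100% of values, which gave whole reads. The main test was limma 3.58.1 (trend, robust) under R 4.3.3. It used log2(normalized count + 1) and the 16590 genes with a mean of at least 10, with Benjamini-Hochberg adjustment over all of them at 0.05. The added 1 pulls the fold changes of low genes toward 0, but limma estimates were not always the smaller ones. Timp1 was at 0.60 in limma, 0.42 in DESeq2 and 0.39 in edgeR. Fmod was at -0.47 in limma and -0.72 in both others. The 95% intervals use limma's moderated error. edgeR 4.0.16 and DESeq2 1.42.0 were run on the recovered reads. The labels do not say what a replicate number stands for, so p-values reflect the spread among these animals and no more. Replicates differed beyond sampling noise (chi-square per degree of freedom 4.84 or more).

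Lengths and coordinates came from GENCODE M21 (mm10). Exons of 14 members overlap another annotated gene; of these Mfap4 and Timp4 overlap one with a mean of at least 50, and strand-blind counting could mix such reads. The limit used for a count of 0 is 3 reads, for counting error alone. Members and lists were chosen with earlier results of these data known. Each animal's value is given for members that were called by any tool, had an unadjusted limma p under 0.05, did not overlap, had an animal standing apart, or had the highest mean of their role, plus others chosen after their values were seen. Genes outside the set were named at an unadjusted limma p under 0.01 and a mean of at least 50, and Upk3b was chosen after its values were seen. Alternatives changed the pseudocount, filter, normalization, variance model, tool, replicate block and animals. The scripts were tested on simulated counts.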

Additional observations from a re-analysis of the deposited data

Results flagged for a closer look

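In 7 of the 76 groups of 4 animals (38 members in each genotype), the gap between an extreme animal and its nearest neighbour exceeded Dixon's 95% critical share of the whole range. That is 9.21% of these groups, against 5.37% over all tested genes, and about 1 in 20 arise by chance. Of the 7, 4 concern wild-type replicate 2, which was highest each time. The ratio was 0.916 for Mmp2 (1219 in that animal), 0.892 for Cilp (177), 0.883 for Postn (980.1) and 0.833 for Sparc (6918). Wild-type replicate 4 was high for Fmod (42.2, ratio 0.878). Among knockouts, replicate 4 was high for Timp3 (2656, ratio 0.885) and replicate 1 was low for Fn1 (1069, ratio 0.954).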

How the results depend on the processing

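The count of members called was 0 under every alternative run, the number of tested members above 0 was 18 to 24, and their median log2 fold change lay between 0.01 and 0.05. Over all genes, where 2 were called, no filter on low values gave 5, sample weights 4 and DESeq2 on recovered reads 21; the cause was not tested. Leaving out 1 animal at a time gave 1 to 6. With the replicate number as a block 3 genes and 0 members were called, with a member median of 0.04. Same-numbered animals did not deviate together (correlations across genes of -0.11 to 0.01), nor did every animal correlate best with its own number. Such correlations show no pairing across genes as a whole, and cannot exclude a litter or batch that acts on some genes. With the block the SE fell for some members, from 0.24 to 0.08 for Ctgf and from 0.12 to 0.07 for Sparc. For others it rose, from 0.21 to 0.24 for Timp3. Settings also moved the unadjusted limma p with all animals kept. With sample weights Gsn (0.049), Dpt (0.049), Loxl1 (0.019) and Sparcl1 (0.023) joined Vcan and Fbln1 under 0.05. Sparcl1 was also under 0.05 with no filter and with quantile normalization (0.039 in each), and Thbs1 without robust moderation (0.048). The share of all genes under 0.05 is not given for these settings.

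Estimates of 14 of 36 members changed sign in some alternative, in 28 of 681 refits, all with a size of at most 0.17 with all animals and none past the threshold in any. Lox alone did so outside the single-animal fits, at 0.045 with sample weights. Over single animals left out, the log2 fold change ranged from -0.087 to 0.022 for Pdgfra, -0.078 to 0.081 for Tcf21, -0.089 to 0.024 for Lum, -0.162 to 0.019 for Bgn, -0.107 to 0.146 for Eln, -0.092 to 0.017 for Fbln5, -0.263 to 0.065 for Mfap4, -0.160 to 0.094 for Lox, -0.023 to 0.147 for Serpinh1, -0.354 to 0.010 for Ctgf, -0.057 to 0.042 for Mmp2, -0.032 to 0.212 for Mmp14, -0.248 to 0.023 for Timp3 and -0.312 to 0.062 for Timp4. For the 22 members that kept their sign it ranged from -0.16 to -0.058 for Gsn, 0.060 to 0.12 for Dpt, -0.13 to -0.039 for Dcn, -0.68 to -0.047 for Fmod, 0.16 to 0.29 for Vcan, 0.11 to 0.35 for Fbn1, -0.23 to -0.14 for Fbln1, 0.065 to 0.17 for Mfap5, 0.10 to 0.21 for Loxl1, 0.076 to 0.22 for Loxl2, 0.0016 to 0.070 for Plod1, 0.037 to 0.11 for Plod2, 0.012 to 0.12 for Pcolce, 0.057 to 0.14 for Fn1, 0.10 to 0.32 for Postn, 0.29 to 0.68 for Thbs1, 0.083 to 0.25 for Sparc, 0.062 to 0.13 for Sparcl1, 0.046 to 0.48 for Cilp, -0.63 to -0.26 for Comp, 0.32 to 0.93 for Timp1 and -0.13 to -0.028 for Timp2. Depth limits Mmp3, Spp1, Timp1, Fmod and Comp, each with a mean under 50.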
